A study of Danio rerio with 12 samples.

Results

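The genes described here encode the proton pump of the lysosome and the enzymes that work in the acid it makes, measured in neutrophils sorted from zebrafish larvae after a spinal cord lesion. They were taken by symbol: the subunits of the vacuolar H+-ATPase (symbols starting with atp6v0, atp6v1, atp6ap1 or atp6ap2), the cathepsins, and 12 named lysosomal membrane proteins, hydrolases and cofactors. This rule found 55 single-gene entries among the 31351 entries of the count table, namely 9 genes of the V0 sector, 12 of the V1 sector, 5 of accessory subunits, 17 cathepsins, 4 membrane proteins and 8 hydrolases or cofactors. Of the 55, 38 had enough counts to be tested, and 37 of these 38 would also have passed the count filter in the uninjured libraries alone, ctsh being the exception.

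All larvae carried mpx:GFP, a transgene in which the promoter of the neutrophil myeloperoxidase gene drives green fluorescent protein. GFP-positive cells were sorted from dissociated trunks that held the lesion, or from the matching region of uninjured larvae of the same age. The spinal cord was cut at 3 days post-fertilization. Between 4 and 8 hours post-injury, larvae were in DMSO, the solvent control, or in 25 uM AMD3100, which blocks the chemokine receptor Cxcr4. The AMD3100 solution held 0.1% DMSO, and the sources used here do not give the concentration in the DMSO groups. Injured and uninjured larvae of each treatment make 4 groups with 3 biological replicates in each, and every library came from 2500 to 4800 sorted cells. The design asks what the lesion changes in neutrophils and whether Cxcr4 inhibition alters that.

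The vacuolar H+-ATPase is a rotary motor. Its cytosolic V1 sector hydrolyses ATP, its membrane-embedded V0 sector carries protons into the lumen, and the accessory subunits help assemble the complex and bring it to its membrane. Cathepsins are proteases that are made as inactive precursors and, for the most part, mature and work at acid pH. In neutrophils, pumps and proteases of this kind serve phagosomes and azurophilic granules, the granule class related to lysosomes.

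The libraries held between 655451 and 12173133 counts. Values are CPM, the counts of a library brought to a shared total with TMM factors, and since transcript ends were counted they are not divided by gene length. Injured AMD3100 replicate 1 was the shallowest library and stood apart from the rest. Along the leading principal component (29.2% of the variance) it lay at 114.4, with the others from -39.9 to 33.0. Its EGFP transgene transcript was at 364.5 CPM, against 1259 to 2141 CPM in the other libraries. The counts of members, and the results that turned on this library, are also given without it. EGFP also moved with injury, since every injured library was lower (364.5 to 1410 CPM) than every uninjured one (1560 to 2141 CPM). The mitochondrial share of counts lay between 29.9% and 32.1% in uninjured and between 19.1% and 26.9% in injured DMSO, without overlap, and between 17.9% and 21.4% in uninjured and 14.2% and 27.8% in injured AMD3100. Without mitochondrial and hemoglobin genes, the members called were 13 for injury in DMSO, 16 in AMD3100 and 22 for the average, the same numbers as with them. Leaving out these genes changes the scaling only, so it does not test differences between cells that go with the share. In pooled cells, fewer cells of one kind and less RNA per cell cannot be told apart, and all levels below are averages over the sorted cells of a library.

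Most tested genes of the proton pump rose with injury (14 of 17), as did 6 of 12 tested cathepsins. Of the cathepsins 1 fell, and of the other lysosomal members 1 of 9 passed the test. With the injury effect averaged over DMSO and AMD3100, 21 of 38 tested members were higher and 1 was lower in injured larvae (adjusted p under 0.05 over 8453 tested entries, edgeR quasi-likelihood test). Among all tested entries 7.97% were higher and 8.01% lower, so that 16.0% passed in either direction. The 1 lower cathepsin of 12 was thus near the share of all entries that were lower. The median log2 fold change of the 38 members was 0.84, against -0.05 for all tested entries, and 33 of the 38 had a positive value against 47.0% of all entries. The 6 injured and the 6 uninjured libraries did not overlap for 15 higher members and 1 lower member. Over all entries the shares with no such overlap were 4.73% and 4.11%. Without injured AMD3100 replicate 1, the 22 calls held and 3 more members passed: atp6v0a1a (0.94, adjusted p = 0.0264), npc1 (0.70, adjusted p = 0.0463) and ctss2.1 (-0.63, adjusted p = 0.0136). The shares over all entries in that fit are not given here.

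**Figure D1:**
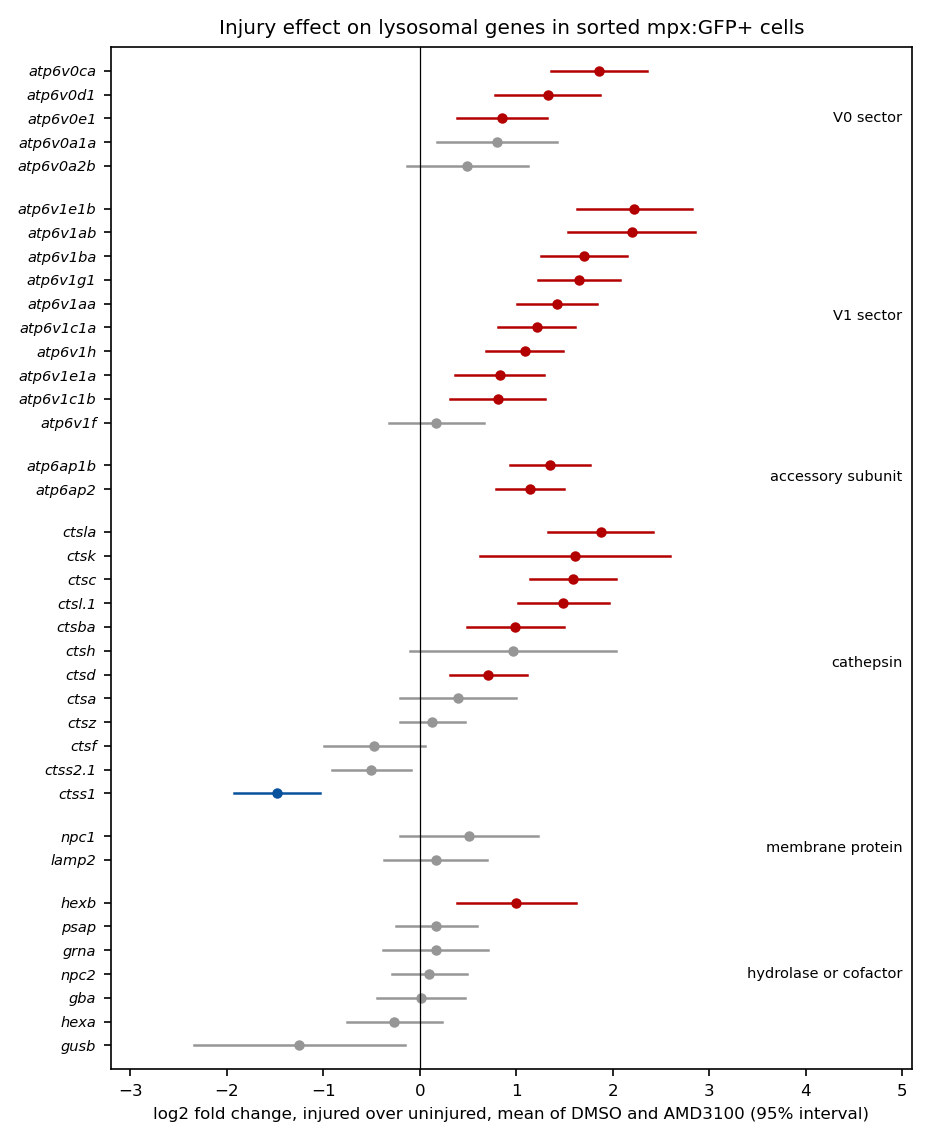
Injury effect of the 38 tested members, as the log2 fold change of injured over uninjured larvae averaged over both treatments (points) with its 95% interval (lines), on a linear axis, grouped by role. Red marks an adjusted p under 0.05 and higher levels in injured larvae, blue the same and lower levels, and grey the rest: all but 3 pump genes are red, ctss1 alone is blue, and the membrane proteins are grey.

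In the V0 sector, 3 of 5 tested genes rose with injury, against 7.97% of all tested entries. The gene atp6v0ca (ENSDARG00000057853) encodes the proteolipid subunit c, copies of which form the ring that turns as protons cross the membrane. It stood at 394, 257 and 295 CPM in uninjured DMSO, 813, 1248 and 969 in injured DMSO, 231, 285 and 436 in uninjured AMD3100, and 1351, 1698 and 861 in injured AMD3100. Every injured library was above every uninjured one in both treatments. The averaged log2 fold change was 1.86 (SE 0.23, adjusted p = 1.11e-04), a 3.63-fold rise.

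The gene atp6v0d1, whose product couples the c ring to the central stalk of V1, rose from a mean of 136 to 335 CPM (log2 change 1.33, SE 0.25, adjusted p = 0.00265), though uninjured DMSO replicate 1, at 251 CPM, overlapped the injured range that began at 211. The small subunit gene atp6v0e1 rose from 137 to 250.2 CPM (0.85, SE 0.22, adjusted p = 0.0164). A joint entry that names this gene with the ribosomal protein gene rpl26 held 123239 counts. It was lower in injured larvae (log2 fold change -0.66, adjusted p = 0.0363). The value of atp6v0e1 thus holds only reads counted to it alone. The paralogues atp6v0a1a and atp6v0a2b encode subunit a, the part of the stator that lets protons in and out and sets to which membrane a pump goes. They had values of 0.80 (adjusted p = 0.0764) and 0.49 (adjusted p = 0.283) and did not pass.

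The V1 sector had 9 of 10 tested genes higher, against 7.97% of all tested entries. The catalytic head of V1 is a ring of A and B subunits. Both tested genes for subunit A rose, atp6v1aa from 54.0 to 145 CPM (log2 change 1.42, SE 0.20, adjusted p = 2.12e-04) and atp6v1ab from 11.8 to 53.8 CPM (2.19, SE 0.31, adjusted p = 2.60e-04). The B subunit gene atp6v1ba went from 66.8 to 217 CPM (1.70, SE 0.21, adjusted p = 1.05e-04).

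Subunits E and G form the outer stalks that keep the head from turning. The G subunit gene atp6v1g1 (ENSDARG00000022315) had the smallest p-value of all members. It was at 251, 289 and 310 CPM in uninjured DMSO, 748, 959 and 893 in injured DMSO, 260, 321 and 388 in uninjured AMD3100, and 1378, 1050 and 708 in injured AMD3100. The groups did not overlap in either treatment, and the averaged log2 fold change was 1.65 (SE 0.20, adjusted p = 8.31e-05), a 3.14-fold rise.

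The E subunit gene atp6v1e1b (ENSDARG00000030694) had the largest averaged change among the 38 tested members. Its levels were 44.1, 24.9 and 40.3 CPM in uninjured DMSO and 154, 234 and 190 in injured DMSO. In AMD3100 they were 34.04, 43.6 and 70.6 CPM without and 158, 329 and 124 with injury. Again no injured library reached down to the uninjured range (2.22, SE 0.28, adjusted p = 1.11e-04, a 4.67-fold rise). Its paralogue atp6v1e1a rose from 11.7 to 21.0 CPM (0.83, SE 0.22, adjusted p = 0.0179), a call lost without any of 3 single libraries (highest adjusted p = 0.0583). Of the counts of these 2 paralogues, atp6v1e1b took 76.5 ± 1.23% in uninjured and 89.7 ± 0.626% in injured DMSO (SD, n = 3), and 79.0 ± 5.33% and 90.2 ± 2.72% in AMD3100. Other V1 pairs shifted less clearly in DMSO. The share of atp6v1ab beside atp6v1aa was 16.8 ± 7.3% and 25.4 ± 2.87%, with overlap between libraries. That of atp6v1c1a beside atp6v1c1b was 64.5 ± 6.0% and 66.2 ± 1.33%. In AMD3100 these shares were 17.9 ± 1.08% and 28.1 ± 7.09%, and 63.4 ± 2.67% and 74.15 ± 6.72%. Reads from near-identical copies can be split between paralogues in counting, and the sources used here do not say how such reads were treated.

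Subunits C and H govern whether V1 stays docked on V0. The C subunit genes atp6v1c1a (log2 fold change 1.21, SE 0.19, adjusted p = 5.20e-04) and atp6v1c1b (0.81, SE 0.23, adjusted p = 0.0277) rose, though the call of atp6v1c1b was lost without any of 7 single libraries (highest adjusted p = 0.0795). The H subunit gene atp6v1h went up, with means of 98.3 and 213 CPM (1.09, SE 0.19, adjusted p = 0.00127). The exception in V1 was atp6v1f, a subunit of the rotating central stalk, with means of 12.4 and 13.6 CPM (0.17, adjusted p = 0.658, 95% interval from -0.32 to 0.66).

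Both tested accessory subunit genes rose. The gene atp6ap2, known as the prorenin receptor, was at 176, 171 and 164 CPM in uninjured and 349, 425 and 458 in injured DMSO. In AMD3100 it was at 216, 178 and 182 CPM without and 335, 449 and 376 with injury, again with no overlap (log2 fold change 1.14, SE 0.16, adjusted p = 2.83e-04). The gene atp6ap1b, whose product sits in V0 and helps assemble it, rose from 31.4 to 79.6 CPM (1.35, SE 0.19, adjusted p = 3.05e-04). Of the 17 tested pump genes of the 3 classes, 14 were thus higher and 0 lower, against 7.97% and 8.01% of all tested entries. In 12 of them the 6 injured libraries lay above the 6 uninjured ones without overlap, as in 4.73% of all entries.

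**Figure D2:**
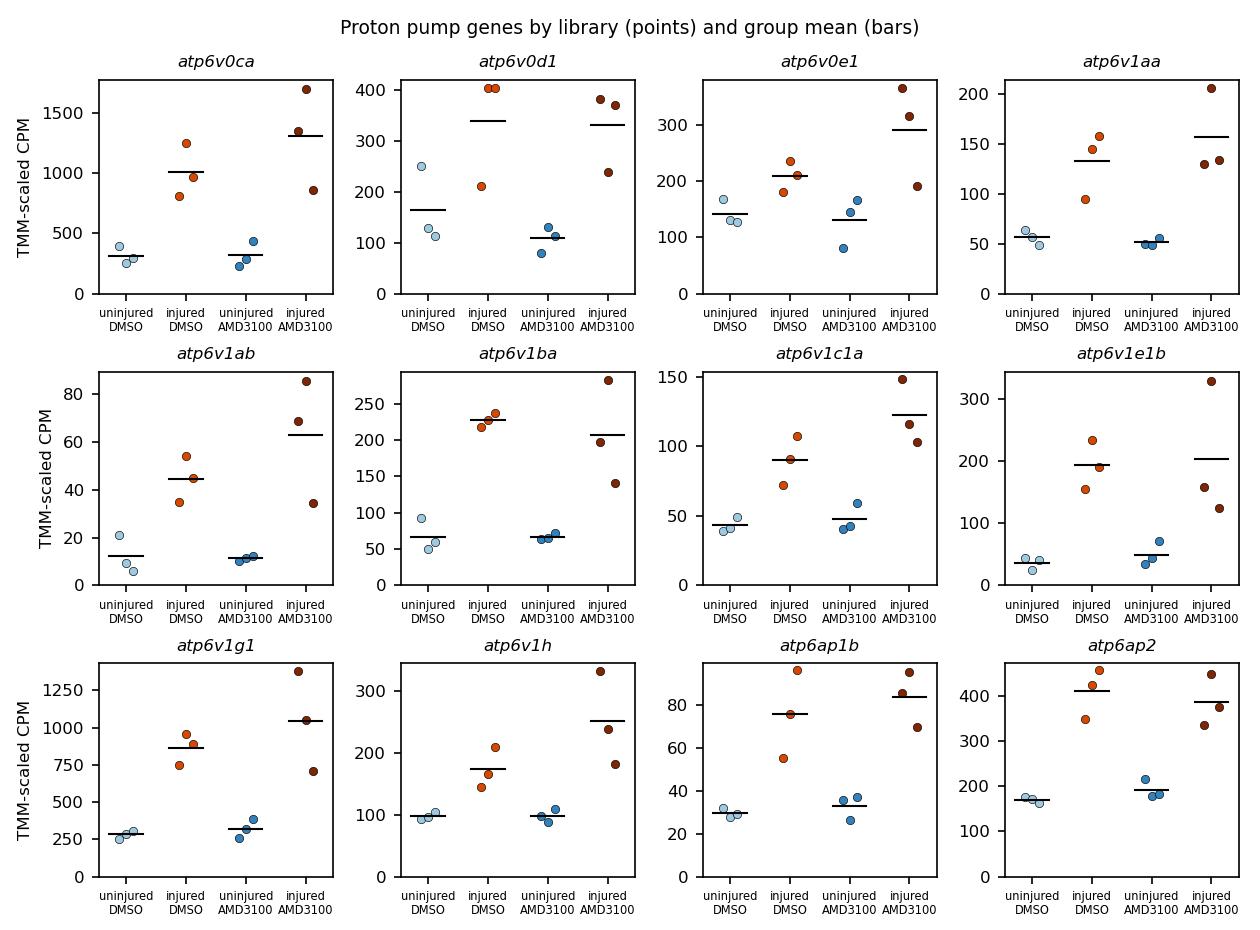
Levels of 12 proton pump genes in TMM-scaled CPM (linear axes from 0), 1 point per library and a bar at the mean of each group of 3. Every panel shows both injured groups above the uninjured group of the same treatment on average, with overlap between single libraries in DMSO for atp6v0d1.

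The pump genes were also summed per library. The 26 pump genes reached 1693.5, 1360.1 and 1424 CPM in uninjured DMSO and 3184, 4408 and 4115 in injured DMSO. In AMD3100 they reached 1285, 1468 and 1803.5 CPM without and 5029.8, 5270.5 and 3405 with injury. The uninjured libraries of both treatments covered nearly the same range, and the lowest injured library was above the highest uninjured one. The ratio of the summed V1 genes to the summed V0 genes lay between 0.787 and 1.42 in the uninjured and between 1.01 and 1.23 in the injured libraries.

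Of the 12 tested cathepsins, 6 rose with injury and 1 fell, against 7.97% of all tested entries higher and 8.01% lower. The gene ctsc (ENSDARG00000101334) encodes the dipeptidyl peptidase that, in mammals, activates the serine proteases of neutrophil granules. It was at 33.7, 30.0 and 33.98 CPM in uninjured DMSO, 76.0, 116 and 114 in injured DMSO, 42.5, 37.2 and 38.5 in uninjured AMD3100, and 121, 149.8 and 71.5 in injured AMD3100. No injured library overlapped an uninjured one (log2 fold change 1.59, SE 0.21, adjusted p = 1.56e-04).

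Cathepsin L is a broad endopeptidase of the lysosome, and both of its tested genes rose. The gene ctsla was at 37.0, 15.4 and 13.8 CPM in uninjured and 76.4, 62.7 and 47.4 in injured DMSO, and at 24.9, 15.5 and 23.5 CPM without and 98.1, 109 and 91.8 with injury in AMD3100. It had the largest change among the cathepsins (1.87, SE 0.26, adjusted p = 2.17e-04). The gene ctsl.1 rose from 35.7 to 97.9 CPM (1.49, SE 0.22, adjusted p = 3.79e-04). Cathepsin B, ctsba, a cysteine protease, rose from 46.9 to 92.7 CPM (0.99, SE 0.24, adjusted p = 0.0103). Cathepsin D, ctsd, the main aspartic protease of lysosomes, rose from 56.6 to 93.4 CPM (0.71, SE 0.19, adjusted p = 0.0184), a call that was lost without injured DMSO replicate 3 (adjusted p = 0.0561). Cathepsin K, ctsk, the collagen-degrading enzyme of mammalian osteoclasts, rose from 3.53 to 11.5 CPM (1.61, SE 0.46, adjusted p = 0.0281). Its call was lost without any of 5 single libraries: uninjured DMSO replicates 2 or 3, injured DMSO replicate 2, uninjured AMD3100 replicate 2 or injured AMD3100 replicate 3 (highest adjusted p = 0.0911).

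The opposite direction was seen in ctss1 (ENSDARG00000036940), a gene for cathepsin S, which in mammals keeps its activity at neutral pH and trims the invariant chain in antigen-presenting cells. It was at 169.7, 273 and 333 CPM in uninjured DMSO and 80.7, 80.1 and 114 in injured DMSO. In AMD3100 it was at 360.3, 293 and 229 CPM without and 122, 92.8 and 105 with injury. Every injured library was below every uninjured one, and the averaged log2 fold change was -1.48 (SE 0.21, adjusted p = 2.61e-04). The related gene ctss2.1, which took the most counts of any cathepsin, was at 876, 825 and 1037 CPM in uninjured and 594, 665 and 814 in injured DMSO. With AMD3100 it was at 1271, 996 and 1064 CPM without and 1005, 504 and 693 with injury. Its groups overlapped over all 12 libraries and it did not pass (-0.50, SE 0.19, adjusted p = 0.0925), but it passed without injured AMD3100 replicate 1 (-0.63, adjusted p = 0.0136) and with limma-voom (-0.54, adjusted p = 0.0415).

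**Figure D3:**
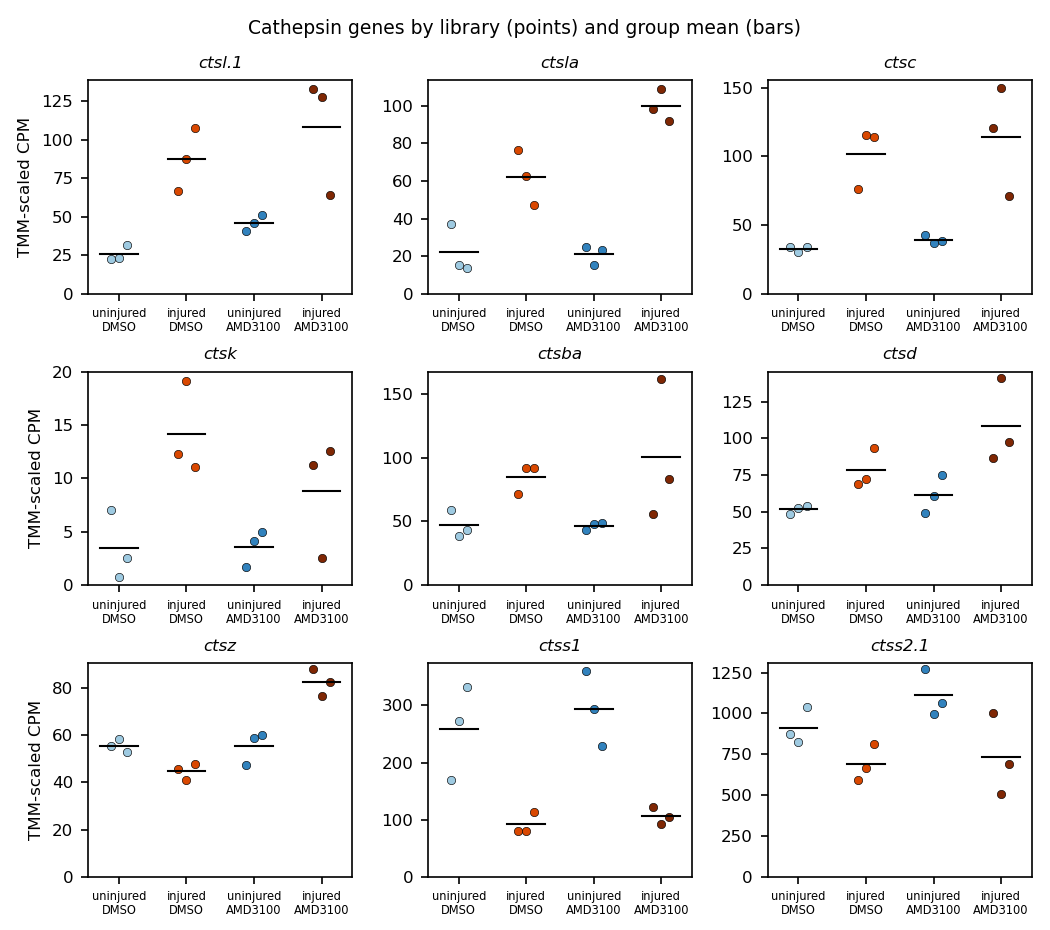
Levels of 9 cathepsin genes in TMM-scaled CPM (linear axes from 0), 1 point per library and a bar at the mean of each group of 3. The panels of ctsl.1, ctsla and ctsc show the injured libraries above the uninjured without overlap, that of ctss1 shows the reverse, and ctsz is highest in injured AMD3100.

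The other 5 tested cathepsins did not pass. The carboxypeptidases ctsa and ctsz had averaged log2 fold changes of 0.39 (adjusted p = 0.381) and 0.13 (adjusted p = 0.625), the cysteine proteases ctsf and ctsh of -0.47 (adjusted p = 0.212) and 0.96 (adjusted p = 0.213). All 17 cathepsins together stood at 1457 ± 156 and 1305 ± 179 CPM in uninjured and injured DMSO, and at 1729 ± 168 and 1519 ± 224 CPM in AMD3100 (SD, n = 3). Of all cathepsin counts, ctss1 and ctss2.1 took 80.2 ± 3.31% in uninjured and 59.8 ± 2.00% in injured DMSO, and 81.0 ± 3.57% and 54.9 ± 12.02% in AMD3100. In injured AMD3100 the share was 63.7% in replicate 1 and 41.2% and 59.7% in the other libraries, all below the uninjured range. The other 15 cathepsins together ranged from 267.5 to 367 CPM in the uninjured and from 465 to 853 CPM in the injured libraries, without overlap. This division of the cathepsins was made when their values were known, and the sums are a description without a test.

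**Figure D4:**
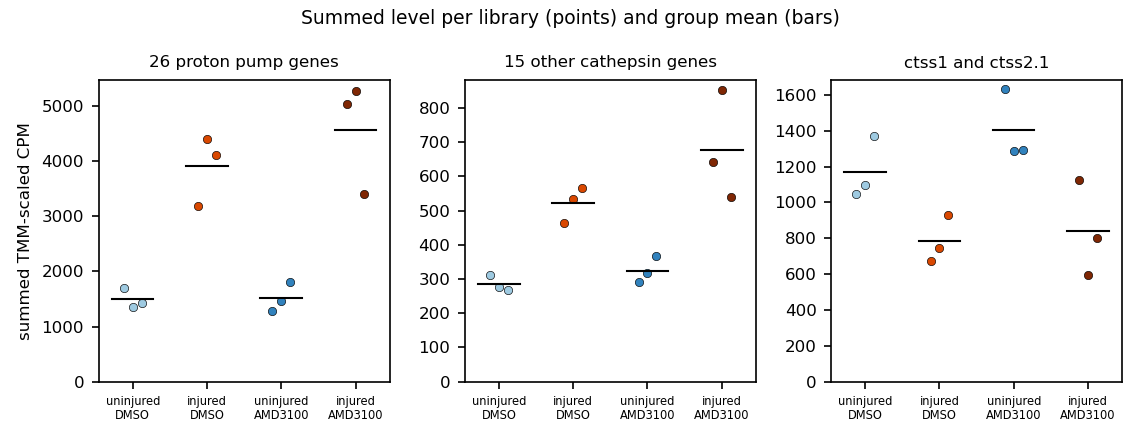
Summed level per library in TMM-scaled CPM (linear axes from 0) of the 26 pump genes, of 15 cathepsins, and of ctss1 with ctss2.1, 1 point per library and a bar at the mean of each group of 3. The first and second panels show no overlap between injured and uninjured libraries, and in the third panel the injured libraries are lower on average with overlap.

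The remaining lysosomal members gave 1 call among 9 tested genes, where 16.0% of all tested entries passed in either direction. The gene hexb, for the beta subunit of hexosaminidase, which cleaves gangliosides and glycans, went from 20.4 to 44.1 CPM (log2 change 1.00, SE 0.29, adjusted p = 0.0293). Its levels were 17.95, 18.3 and 21.1 CPM in uninjured and 24.2, 35.2 and 32.2 in injured DMSO. With AMD3100 they were 20.9, 22.9 and 21.3 CPM without and 102, 47.6 and 22.8 with injury. Replicate 1 of injured AMD3100 was far above the others and replicate 3 lay within the uninjured range. Without replicate 1 of injured AMD3100 the averaged value of hexb was smaller, at 0.70 (adjusted p = 0.0361). The call was lost with limma-voom and without any of 6 single libraries: replicates 1 and 2 of uninjured DMSO, 2 and 3 of injured DMSO, and 2 and 3 of uninjured AMD3100 (highest adjusted p = 0.0695).

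The partner subunit hexa had a value of -0.26 (adjusted p = 0.484). Prosaposin, psap, the precursor of the sphingolipid activators, had means of 276 and 310.1 CPM (0.17, adjusted p = 0.605). The glucocerebrosidase gba (0.01, adjusted p = 0.981), progranulin grna (0.16, adjusted p = 0.715) and the sterol carrier npc2 (0.10, adjusted p = 0.761) did not pass either. Among membrane proteins, lamp2 was at 19.0, 12.5 and 11.3 CPM in uninjured DMSO, 11.3, 14.2 and 15.4 in injured DMSO, 13.1, 12.4 and 8.26 in uninjured AMD3100, and 8.41, 19.98 and 13.1 in injured AMD3100. These 4 groups overlapped (0.17, adjusted p = 0.702), and the cholesterol exporter npc1 was at 0.51 (adjusted p = 0.329).

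The beta-glucuronidase gene gusb (ENSDARG00000063126), a classical azurophilic granule enzyme in mammals, varied widely among libraries of one group. It was at 971, 978 and 1250.3 CPM in uninjured DMSO, 1136, 91.0 and 275 in injured DMSO, 550.1, 388 and 202 in uninjured AMD3100, and 212, 36.5 and 188 in injured AMD3100. The averaged injury value was -1.25 (SE 0.51, adjusted p = 0.111). It passed in some other settings, among them limma-voom (-1.79, adjusted p = 0.0278), no count filter (-1.23, adjusted p = 9.88e-06) and the set without injured DMSO replicate 1 (-1.97, adjusted p = 0.00942).

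The injury effect was then read in each treatment. These contrasts share no libraries with each other, and both are parts of the average given above. In DMSO, 12 members were higher and 1 lower, where 2.86% and 2.33% of all tested entries (5.19% in either direction) passed. In AMD3100, 15 were higher and 1 lower, where 3.00% and 2.41% (5.42%) passed. Injured and uninjured libraries did not overlap for 21 higher and 3 lower members in DMSO, against 15.9% and 13.7% of all entries, and for 19 higher and 1 lower in AMD3100, against 10.5% and 14%. Among the 17 tested pump genes, 9 passed in DMSO and 12 in AMD3100, each of them higher in injured larvae. Their median log2 fold changes were 1.06 and 1.35.

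The cathepsin calls were the same 4 genes in both treatments. The gene ctsc rose by 1.64 in DMSO (adjusted p = 0.00509) and 1.53 in AMD3100 (adjusted p = 0.00766), ctsl.1 by 1.75 (adjusted p = 0.00539) and 1.23 (adjusted p = 0.0336), and ctsla by 1.51 (adjusted p = 0.0260) and 2.24 (adjusted p = 0.00331). The AMD3100 call of ctsl.1 was lost in a fit of the AMD3100 groups alone, with the replicate block, with quality weights and without any of 5 single libraries: uninjured AMD3100 replicates 1, 2 or 3 or injured AMD3100 replicates 1 or 2 (highest adjusted p = 0.115). The gene ctss1 fell by 1.497 (adjusted p = 0.00915) and 1.47 (adjusted p = 0.0104). With each library left out in turn, its call held in 9 of 12 fits in each treatment (highest adjusted p = 0.0595 and 0.058). The DMSO call of ctsla held in 8 of 12 such fits (highest adjusted p = 0.127). The AMD3100 call of ctsc was lost in the fit of the groups alone and without uninjured AMD3100 replicate 2 (highest adjusted p = 0.0579). The pump genes atp6v0d1, atp6v0e1 and atp6v1h passed in AMD3100 and not in DMSO, where their values were 1.05 (adjusted p = 0.107), 0.56 (adjusted p = 0.342) and 0.82 (adjusted p = 0.0891). Their AMD3100 calls also depended on the setting. That of atp6v0e1 was lost in a fit of the AMD3100 groups alone, with the replicate block, with quality weights and without any of 9 single libraries (highest adjusted p = 0.159). That of atp6v0d1 was lost without any 1 of the uninjured AMD3100 libraries (highest adjusted p = 0.0719), and that of atp6v1h in the fit of the groups alone and without uninjured AMD3100 replicate 2 (highest adjusted p = 0.0694). The interaction passed for none of the 3 genes, so that no difference between treatments was shown.

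Single libraries moved these counts. In DMSO, 6 of 13 calls held in all settings tried and with any library left out: atp6ap2, ctsc, ctsl.1, atp6v1ba, atp6v1e1b and atp6v1g1. The count fell to 7 when uninjured DMSO replicate 2 was left out, and to 6 when uninjured DMSO replicate 3 was, or injured DMSO replicate 2. In AMD3100, 6 of 16 held throughout: ctsla, atp6v0ca, atp6v1aa, atp6v1ab, atp6v1ba and atp6v1g1. There the count fell to 6 without uninjured AMD3100 replicate 2 and was 17, with 14 of the original 16 among them, without the library that stood apart, injured AMD3100 replicate 1. Of the 22 averaged calls, 17 held in every setting and with any library left out, the exceptions being ctsd, ctsk, hexb, atp6v1c1b and atp6v1e1a. No call changed direction in any of them. For the fits with a library left out, the shares of all entries passing are not given here. These counts thus do not show whether members lost calls more than other genes did.

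**Figure D5:**
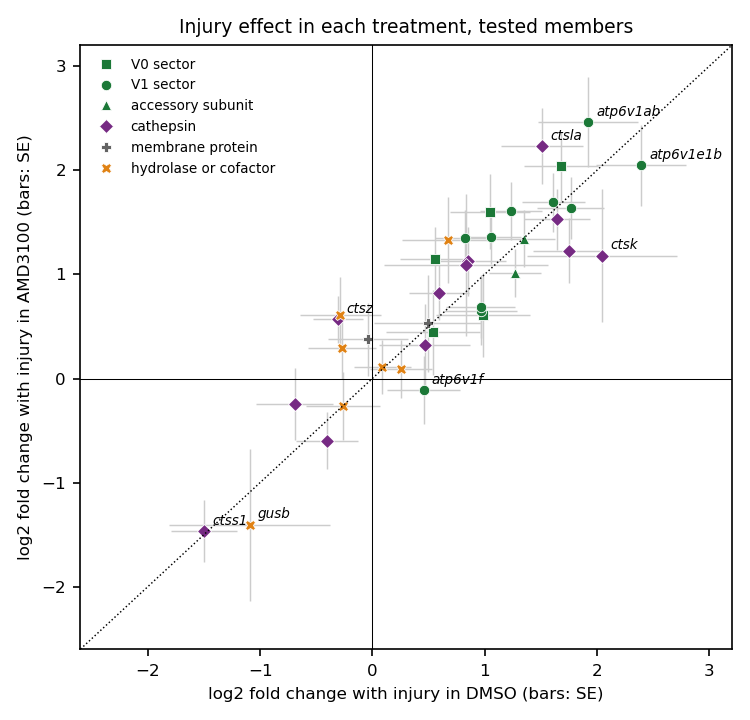
Log2 fold change with injury in DMSO (horizontal axis) and in AMD3100 (vertical axis) for the 38 tested members, with SE bars, symbols by role and a dotted line of equal change. Of the 17 pump genes 16 lie in the upper right and atp6v1f lies at 0.46 in DMSO and -0.11 in AMD3100, ctss1 and gusb in the lower left, and ctsz is positive in AMD3100 and negative in DMSO.

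No member passed the test for AMD3100 itself. In injured larvae, 0% of all tested entries passed, in uninjured larvae 0.0118% (1 entry, the cartilage collagen gene col9a1b, 4.36, adjusted p = 0.0371), and 0% passed for the interaction of injury and treatment. DESeq2 and limma-voom called 0 members as well. At an unadjusted p under 0.05 there were 3 members in injured larvae (ctsz, grna and gusb), 1 in uninjured larvae (ctsl.1) and 1 for the interaction (ctsz), where 5.51%, 5.12% and 3.13% of all tested entries were under 0.05. Without injured AMD3100 replicate 1 no member passed either, and those under 0.05 in injured larvae were ctsd, ctsz and gusb. The smallest adjusted p of a member was 0.901 in injured and 0.959 in uninjured larvae. AMD3100 and DMSO libraries did not overlap for 3 higher and 0 lower members in injured larvae, against 4.66% and 5.67% of all entries, and for 4 higher and 1 lower in uninjured larvae, against 6.91% and 6.02%. By the library numbers in the labels, all DMSO libraries come before all AMD3100 libraries. The sources used here do not say what the numbers stand for, and an effect of that order cannot be told apart from one of treatment. Notochord and cartilage markers differed between the treatments. Their sum lay between 16.9 and 22.9 CPM in uninjured DMSO and 16.7 and 32.2 CPM in injured DMSO, against 89.9 to 248.2 CPM in uninjured and 30.8 to 66.4 CPM in injured AMD3100. In uninjured larvae 10 of the 11 tested genes of this list were positive for AMD3100 (median 3.48). Skeletal muscle markers had 30 of 36 tested genes positive for AMD3100 in uninjured larvae (median 1.11), with 0 past the threshold. Their sum lay between 3525 and 27660 CPM in uninjured DMSO and between 16160 and 56950 CPM in uninjured AMD3100. In injured larvae 19 of 36 were positive (median 0.11). The part of both lists in the AMD3100 values was not tested.

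The 95% interval of the AMD3100 effect lay within 1 log2 unit on either side of 0 for 22 of 38 members in injured and 25 in uninjured larvae. For the interaction it did so for 6, with a median reach of 0.967 to each side of the estimate. For atp6v1g1 the interaction was 0.08, with an interval from -0.75 to 0.91, and for atp6v0ca it was 0.36, from -0.60 to 1.32. Without injured AMD3100 replicate 1 they were -0.17 (from -0.87 to 0.54) and 0.33 (from -0.64 to 1.304).

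The member nearest to an effect of AMD3100 was the cathepsin gene ctsz, picked out after its values were seen. It was at 55.5, 58.6 and 52.7 CPM in uninjured DMSO and 45.8, 41.2 and 47.7 in injured DMSO. In AMD3100 it was at 47.2, 59.0 and 60.0 CPM without and 88.3, 76.8 and 82.7 with injury. The 3 injured AMD3100 libraries lay above all other libraries, and injured DMSO lay below uninjured DMSO. The AMD3100 effect in injured larvae was 0.87 (interval from 0.39 to 1.36, adjusted p = 0.901), and the interaction was 0.87 (interval from 0.19 to 1.56), which did not pass after adjustment. Without injured AMD3100 replicate 1 these values were 0.84 (from 0.38 to 1.29, adjusted p = 1) and 0.83 (from 0.21 to 1.45, adjusted p = 0.999). For gusb, AMD3100 had values of -1.80 (adjusted p = 0.901) in injured and -1.49 (adjusted p = 0.976) in uninjured larvae, both of which passed when no count filter was applied (adjusted p = 1.01e-04 and 0.00258).

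Other lysosomal genes were set beside the members. With injury averaged over treatments, 7.97% of all tested entries were higher and 8.01% lower, with a median log2 fold change of -0.05. Of 35 tested other hydrolases and cofactors, 3 were higher and 3 lower in this average, near these shares, with a median of 0.10. They included the hyaluronidase hyal2b (2.05, adjusted p = 3.79e-04) and the asparaginyl endopeptidase lgmn, which processes cathepsin precursors in mammals (1.57, adjusted p = 0.00536). The ribonucleases rnaset2l (-3.89, adjusted p = 0.00811) and rnaset2 (-0.63, adjusted p = 0.0252) fell. Of 31 lysosomal membrane proteins and transporters, 7 were higher and 2 lower (median 0.25). The chloride-proton exchanger clcn7, which works beside the pump in mammals, rose from 26.6 to 62.3 CPM (1.23, adjusted p = 0.00107), as did the calcium channel mcoln3a (3.90, adjusted p = 0.00115) and the endosomal protein plekhf1 (3.92, adjusted p = 8.63e-06). The peptide transporter abcb9, which is also in the list of neutrophil markers used below, fell (-2.09, adjusted p = 8.63e-06). The large changes of mcoln3a and rnaset2l have a side near 0. In DMSO their means were 0.12 and 3.46 CPM in uninjured and 7.255 and 0.03 CPM in injured larvae.

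Of 8 tested genes for pump assembly and regulation, 2 were higher and 0 lower (median 0.33), namely rab7a, the small GTPase of late endosomes (1.33, adjusted p = 7.05e-04), and the assembly factor tmem199 (1.18, adjusted p = 0.00744). Mannose 6-phosphate and sortilin sorting, which delivers new enzymes to lysosomes, had 1 of 13 higher and 0 lower (median 0.01), the adaptor subunit ap1m1 (0.53, adjusted p = 0.0383). Over all tested entries the shares were 7.97% higher and 8.01% lower. A list of cystatins and serpins had 0 of 5 tested genes in either direction. Of these only cst14b.2 is a cystatin, and the others are serpinb1 genes, whose mammalian relatives chiefly inhibit serine proteases of neutrophils.

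The TFEB family of transcription factors drives pump and cathepsin genes in mammals and is held in the cytoplasm by the kinase complex mTORC1 on the lysosome. Of 30 tested genes of this system, 1 was higher (lamtor5, 0.92, adjusted p = 0.00940) and 1 lower (sesn1, -2.32, adjusted p = 2.39e-04), with a median of 0.01. For this list and for autophagy, the shares over all tested entries were again 7.97% higher and 8.01% lower. The transcript of tfeb stood at 5.05 CPM in uninjured and 4.75 CPM in injured libraries (-0.22, adjusted p = 0.710). Its values in the single treatments had opposite signs, -0.95 in DMSO (5.52 to 2.84 CPM, adjusted p = 0.304) and 0.50 in AMD3100 (4.59 to 6.67 CPM, adjusted p = 0.616), and neither passed. Of the rest of the family, mitfa did not pass (-0.02, adjusted p = 0.987). The genes tfec, tfe3a, tfe3b and mitfb had too few counts to be tested (37, 39, 1 and 2 in all). These are transcript levels, and the place and activity of the proteins were not measured. Autophagy genes had 3 of 33 higher and 1 lower (median 0.01), among them atg16l1 (0.88, adjusted p = 0.00191), tmem41b (3.56, adjusted p = 0.00235) and map1lc3b (1.097, adjusted p = 0.0131), with the fusion protein vamp8 lower (-0.70, adjusted p = 0.0497). The uninjured side of tmem41b was near 0, with means of 0.24 CPM in uninjured and 6.655 CPM in injured DMSO. Without injured AMD3100 replicate 1, autophagy had 0 genes lower, the other hydrolases 2 of 38 higher and 4 lower, the membrane proteins and transporters 8 of 32 higher and 3 lower, and pump assembly 3 of 8 higher and 1 lower. The shares over all entries in that fit are not given here.

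Other cells that carry the same genes could be in a trunk sort, and their markers were read in the same libraries. The marker counts stand beside 7.97% of all tested entries higher and 8.01% lower with injury averaged over treatments. Macrophages are rich in lysosomes. Of 15 tested macrophage and microglia markers, 3 rose and 6 fell with injury (median -0.45), with mpeg1.1 and c1qb among those that fell (-1.06, adjusted p = 0.0287, and -3.16, adjusted p = 0.00142), and mfap4 at 0 in all libraries. The summed CPM of the list ranged from 287 to 349 in the uninjured and from 403 to 538 in the injured libraries. In DMSO, 5 of the 15 tested genes were positive, among them the most abundant in injured larvae. These were il34 (182 CPM uninjured and 244 injured), ccl34a.4 (40.3 and 84.45) and lgals9l1 (13.3 and 92.2). The sum thus follows these genes more than mpeg1.1 (9.33 and 3.38) or csf1rb (12.4 and 0.76). The product of il34 is a ligand of the receptor Csf1r, so its transcript does not by itself mark macrophages. Also positive in DMSO were slc7a7 (9.95 and 14.1 CPM) and marco (2.55 and 4.81 CPM, adjusted p = 0.446). In AMD3100, marco was at 1.35, 5.90 and 10.0 CPM without and 9.81, 14.2 and 13.3 with injury. The galectin gene lgals9l1 had the largest rise of the list (2.65, adjusted p = 4.69e-05).

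Ionocytes of the skin also express proton pumps at high levels in zebrafish. None of 17 ionocyte markers had enough counts to be tested. Their sum was between 0 and 4.05 CPM in uninjured and injured DMSO and uninjured AMD3100, and 40.7, 5.32 and 1.56 CPM in injured AMD3100, the first being the library that stood apart. The ionocyte factors foxi3a and foxi3b were below 1 CPM in every library. Neutrophil markers had 5 of 25 tested genes higher and 6 lower, and their sum went from 45950 to 67350 CPM in uninjured to 25590 to 38810 CPM in injured libraries. In DMSO, 3 of them passed as higher: illr4 (55.2 CPM uninjured and 674 injured), mmp9 (877 and 2674) and cybb (265 and 715). The 4 lower in DMSO were npsn (26600 and 10060), mpx (3355 and 1355), sms (2033 and 722) and abcb9 (116 and 25.6). Skeletal muscle markers had 0 of 36 higher and 10 lower, with sums of 3525 to 56950 CPM in uninjured and 1240 to 15460 CPM in injured libraries. Of the other marker lists, skin and epithelium had 3 of 16 tested genes higher and 0 lower, erythroid cells 1 of 14 higher and 4 lower, and neurons and glia 1 of 9 higher and 3 lower. For all these lists too, the shares over all tested entries were 7.97% higher and 8.01% lower. Thrombocyte, lymphoid and mast cell markers had 1 of 6 higher and 2 lower, with sums of 3397 to 6326 CPM in uninjured and 1139 to 2052 CPM in injured libraries. In that list cpa5 had means of 4934 CPM in uninjured and 1225 CPM in injured DMSO. Notochord (11) and pigment cells (2) had 0 in either direction. Without injured AMD3100 replicate 1, skeletal muscle had 20 of 38 lower, erythroid cells 2 of 16 lower, neutrophil markers 6 of 25 higher and 8 lower, and macrophage markers again 3 of 15 higher and 6 lower. The 7.97% and 8.01% belong to the fit of all 12 libraries. The shares over all entries without that library are not given here, so these counts cannot be set against them. The part of these shifts, and of those in EGFP and the mitochondrial share, in the pump and cathepsin results was not tested.

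The 17 members that were not tested had at most 102 counts over all libraries, the number for lamp1b. They were atp6v0a1b, atp6v0a2a, atp6v0b, atp6v0cb, atp6v1b2, atp6v1c2, atp6ap1a, atp6ap1la, atp6ap1lb, ctsbb, ctslb, ctsll, ctso, ctss2.2, gaa, lamp1a and lamp1b. Of these, 15 had under 15 counts in total and 7 had 0 in every library, which allows a level of up to 0.246 CPM in the deepest and 4.21 CPM in the shallowest library (3 counts, for counting error only). The joint entry that holds the V1 subunit D gene atp6v1d had 0 counts. A low count at a transcript end shows that little was counted for that annotation, and not that the subunit was lacking.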

How the data were processed

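Messenger RNA of 12 libraries was counted by an adapted CEL-seq method, per the labels' protocols. The table deposited by the authors gives unnormalized counts per gene. Per the submitters' processing notes, BWA, build GRCz11 and DESeq2 1.38 were used. The sources used here do not say whether molecular identifiers were collapsed. Entries that name more than 1 gene are called joint entries here. The 88 spike-in entries were left out.

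Members and gene lists were chosen with earlier results of these data known. Entries kept by filterByExpr (minimum count 10, minimum total 15), 8453 in all, were scaled by TMM and fitted by edgeR 4.0.16 (R 4.3.3), with 1 coefficient per group, for 6 contrasts. The threshold was 0.05 for the p of the quasi-likelihood F test after Benjamini-Hochberg adjustment. SE came from the F statistic. Named were members past the threshold in any contrast, the 2 most abundant of each class, and up to 4 listed genes of smallest p; per-library values beyond these, and grna, were picked with values known.

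Alternatives were RLE and upper-quartile factors, DESeq2 1.42.0, limma-voom (limma 3.58.1), no filter, 10 CPM in 3 libraries, the contrast's groups alone, a replicate block, no mitochondrial or hemoglobin genes, each library left out, and, chosen after seeing the data, sample quality weights. The pipeline was tested on simulated data. P-values set each change against the spread between these biological replicates, which the main fit estimates over all 4 groups. Chromosome positions and sequences were not used here, so no promoter was read.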

Additional observations from a re-analysis of the deposited data

Results flagged for a closer look

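Some reads are kept in joint entries, which name a member together with another gene and are not counted as members. Of the 19 joint entries with a member, 3 had enough counts to be tested. That of atp6v0e1 with rpl26, which was lower with injury, is described with atp6v0e1. The entry of atp6v0ca with cramp1, 1958 counts in all, had means of 13.2 CPM in uninjured and 44.2 CPM in injured DMSO, and of 10.22 and 74.8 CPM in AMD3100 (n = 3 each). Its averaged injury log2 fold change was 2.27 (edgeR quasi-likelihood test, adjusted p = 0.0101), beside 1.86 for atp6v0ca alone. The entry of atp6v1e1b with ada2b, 326 counts in all, had means of 1.09 and 5.94 CPM in DMSO and 1.89 and 11.7 CPM in AMD3100, and an averaged value of 2.42 (adjusted p = 0.00158), beside 2.22 for atp6v1e1b alone. Which of the genes named in an entry gave these reads was not tested.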

How the results depend on the processing

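With any library left out, the number of members past the threshold ranged from 6 to 14 for injury in DMSO (13 with all libraries), from 6 to 18 for injury in AMD3100 (16), and from 18 to 25 for the averaged injury effect (22). The shares of all entries passing in those fits are not given here, so these ranges do not show whether other genes lost calls as well. A fit of the contrast's groups alone gave 8 for injury in AMD3100. With no count filter, 1 member, gusb, passed for AMD3100 in injured and 1, again gusb, in uninjured larvae, against 0 otherwise. The causes were not tested. All other settings stayed within 1.5 times these counts, and no call turned in direction, the range over DESeq2, limma-voom, scalings and filters being 13 to 16, 16 to 19 and 22 to 24 for the 3 injury effects, and quality weights giving 19, 15 and 25. With the replicate number as a block the counts were 13, 14 and 23. Of 18 same-numbered pairs, 1 had deviations correlated above 0.1, and 3 of 12 libraries correlated best with their own number. With 3 replicates per group, these values cannot settle whether same-numbered libraries were prepared together. Depth limits the genes with few counts, ctsk and ctsh among them, most in the library of 655451 counts.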
